A study of Mus musculus with 6 samples.

Results

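Calcium handling in the epidermis was described through 10 genes of calcium pumps, sensors, release and entry channels, TRP channels and a water channel. The members were fixed by name, with earlier results of these data already known. Each was read from the probe sets that the platform's annotation pairs with its symbol alone. Of the 10, 9 were measured among 30063 genes, each by 1 probe set: Atp2a2, Casr, Plcd1, Itpr2, Stim1, Orai1, Trpv3, Trpv4 and Aqp3. Atp2c1, the calcium pump of the Golgi, is not analysed here.

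RNA came from epidermal sheets of E18.5 mouse embryos, lifted from the dermis with ammonium thiocyanate and hybridised to 6 expression arrays. The 3 Rptor cKO arrays came from embryos with a conditional knockout of Rptor, the gene of the mTORC1 subunit Raptor, and the 3 wild-type arrays from littermates. Embryos were sorted by eye and genotyped. Neither the Cre driver nor the deleted exons are stated in the labels. In the text, Rptor cKO arrays are numbered 1 to 3 and wild-type arrays 4 to 6, as in the labels.

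Keratinocytes answer a rise of extracellular calcium with the calcium switch: they stop dividing, build cadherin junctions and turn on genes of the spinous and granular layers. In the skin, calcium is low around basal cells and high in the granular layer. The receptor CASR senses it outside the cell, phospholipase C makes the messenger inositol trisphosphate, and inositol trisphosphate receptors release calcium from the endoplasmic reticulum. STIM1 senses the emptied store and opens ORAI1 in the plasma membrane, while the pumps SERCA2 (Atp2a2) and Atp2c1 refill the stores. TRPV3 and TRPV4 are warmth-gated calcium channels of keratinocytes.

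Precision is limited by the small number of arrays. Over all genes 1791 fell (5.96%) and 1095 rose (3.64%) in Rptor cKO by limma at an adjusted p under 0.05, 9.60% in all. Falls were 62.1% of these calls as deposited, 68.5% with array medians subtracted and 51.8% after quantile normalization. Rptor differed by -0.46 (SE 0.15, limma adjusted p = 0.0988), so the array gave only a weak check of the genotype labels. Xist and Y-linked genes read Rptor cKO arrays 1 and 3 as female and the other 4 arrays as male. The keratinocyte markers check the labelled tissue. Their summed level per gene, as log2, was 10.42 to 11.11 in Rptor cKO and 11.38 to 11.54 in wild type. The median of their differences was 0.022, and 4 of the 9 were below 0. Of 9 keratinocyte markers 4 fell (Krt1, Krt10, Dsp and Perp), but none did without Rptor cKO array 2 or wild-type array 6, 1 without Rptor cKO array 1 and 2 with embryo sex as a term.

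Of the 9 measured calcium genes, Plcd1, Itpr2 and Trpv3 fell in Rptor cKO, none rose, and 6 did not pass the test. That is 3 of 9 lower against 5.96% of all genes. With genes whose mean was not above the negative controls' median left out, 1863 of 20186 genes were lower, and still 3 of the 9. At an unadjusted p under 0.05 without that filter, 4 of the 9 were lower and 0 higher in limma, the fourth being Stim1. At that looser threshold 25 of the 161 other calcium genes were lower and 26 higher. The share of all genes there was not counted, so the 4 cannot be set against it. Plcd1 was 2.04-fold lower, Itpr2 1.43-fold and Trpv3 1.44-fold. For Plcd1, Itpr2, Trpv3 and Stim1, 4 of 9 genes, each Rptor cKO value was under each wild-type value, against 12.5% of all genes that were separated in this direction. The median difference of the 9 genes was -0.33, beside 0.05 over all genes tested. All 9 differences were below 0 in the values as deposited, as were 38.4% of all genes, but those of Atp2a2, Orai1 and Aqp3 were above 0 after quantile normalization. In bulk tissue, fewer cells of a layer and less RNA per cell cannot be told apart.

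**Figure D1:**
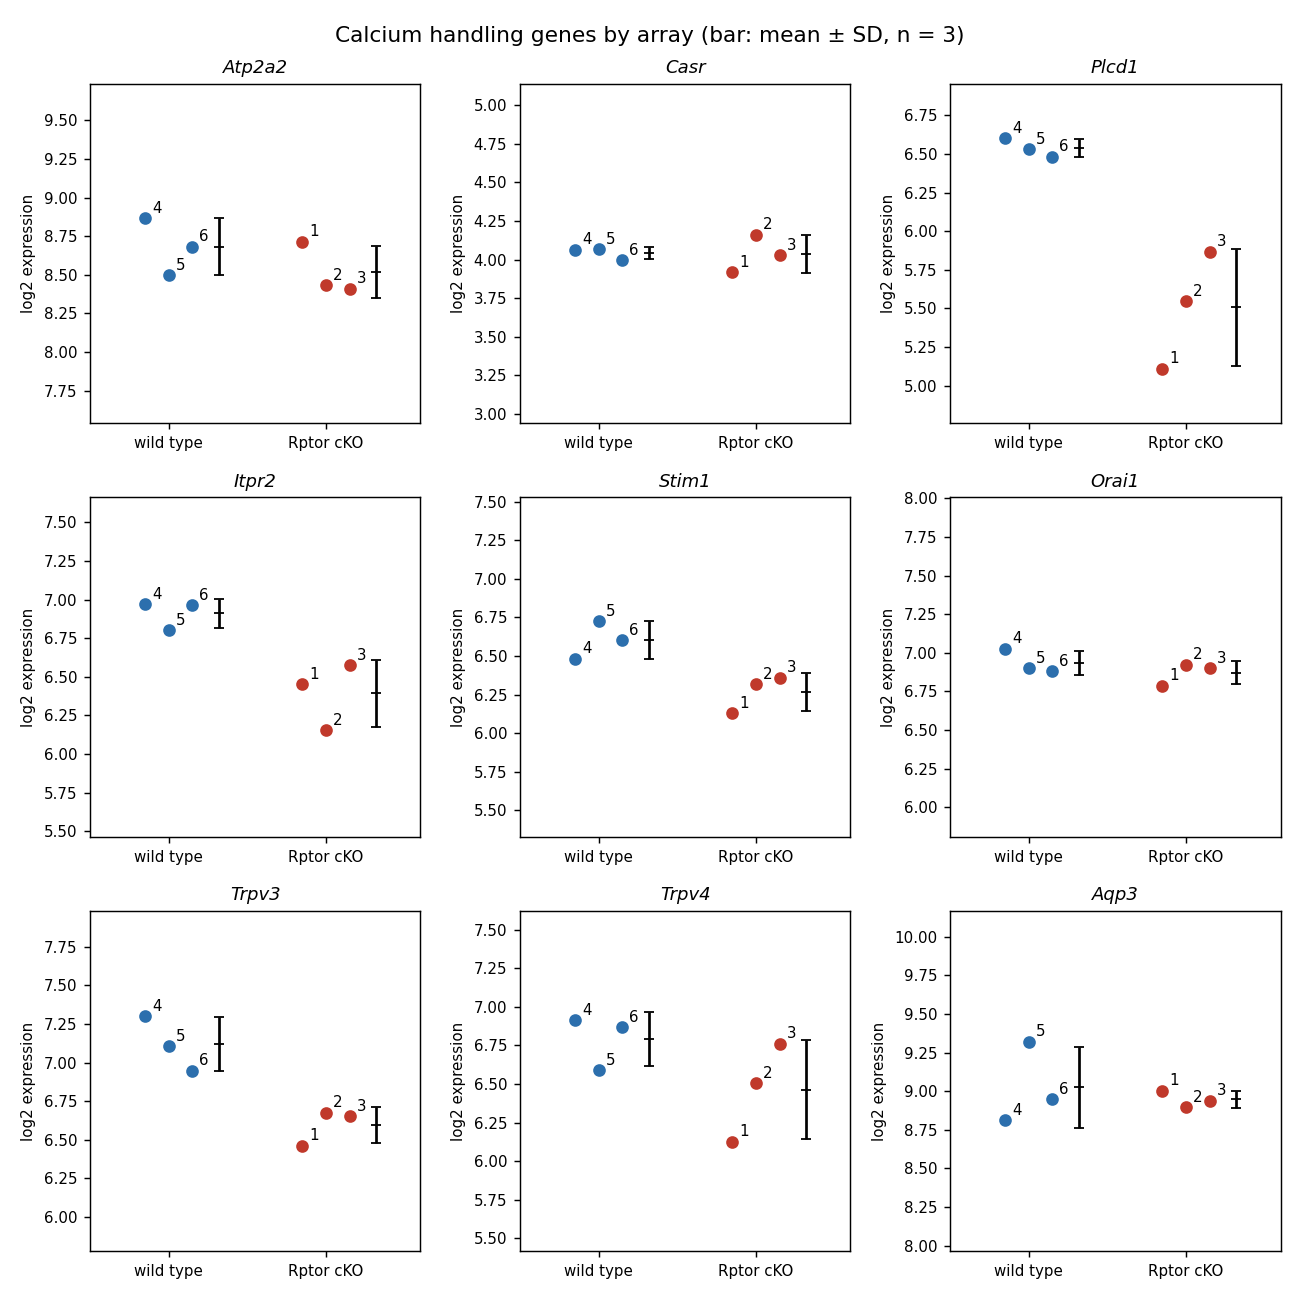
Each panel plots the log2 expression value of 1 gene on the 3 wild-type and 3 Rptor cKO arrays, numbered as in the labels, with the group mean and SD as a bar; every panel spans the same number of log2 units. Plcd1, Itpr2, Stim1 and Trpv3 show no overlap between the groups, and Atp2a2, Casr, Orai1, Trpv4 and Aqp3 do.

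Of the 9 genes Plcd1 changed most. It encodes phospholipase C delta 1, which cleaves the membrane lipid PIP2 into inositol trisphosphate and diacylglycerol, is activated by calcium, and is needed for normal hair and epidermis in mice. The gene lies on chromosome 9 at 119071527 to 119093502 in mm10. It read 5.11, 5.55 and 5.87 on Rptor cKO arrays 1 to 3 and 6.60, 6.53 and 6.48 on wild-type arrays 4 to 6. The wild-type arrays lay close together, and the Rptor cKO arrays were all lower and spread wider, with array 1 the lowest. The means were 5.51 ± 0.38 and 6.54 ± 0.061 (SD, n = 3), a difference of -1.03 (SE 0.17, 95% interval -1.43 to -0.63, limma adjusted p = 0.0100). Plcd1 passed in all 6 fits that left out an array, with -1.21 to -0.83, but only narrowly without Rptor cKO array 2 (limma adjusted p = 0.0499). An ordinary linear model did not pass (adjusted p = 0.146). The male Rptor cKO array 2 alone against the 3 wild-type arrays, all male, gave -0.99. That fit takes the gene's own spread from wild type alone, with SD 0.061 beside 0.38 in Rptor cKO. The fit with embryo sex as a term did not pass (limma adjusted p = 0.117).

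The promoter of Plcd1 is shown because it is the member that changed most, and those of Itpr2 and Trpv3 follow where they are described, so that the 3 genes that fell can be compared. RefSeq promoter sequences (build GRCm38.p6) were found for 8 of the 9 measured genes. The 250 bases before the transcript start are given on the gene's strand. For Plcd1 this is the minus strand at chr9:119093503-119093752, the more upstream of its 2 RefSeq starts. A transcript can start inside the full span of its gene. The Itpr2 and Trpv3 windows lie partly within that span, and the Stim1 window lies within it. Capitals mark matches to 4 motifs searched on both strands: the AP-1 site TGANTCA, the E-box CACGTG that MiT/TFE and MYC proteins bind, the grainyhead motif AACCNGTT and the GC box GGGCGG. Windows of this length before 32851 RefSeq starts held them in 6.75%, 6.02%, 1.79% and 32.7%.
Plcd1: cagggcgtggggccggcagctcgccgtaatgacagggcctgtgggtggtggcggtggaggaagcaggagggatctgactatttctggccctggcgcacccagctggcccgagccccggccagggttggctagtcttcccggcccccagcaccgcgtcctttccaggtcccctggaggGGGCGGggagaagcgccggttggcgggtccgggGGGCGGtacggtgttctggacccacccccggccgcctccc
The Plcd1 window held 2 GC boxes and none of the other 3 motifs, which says only that those letters are not in this window. Its GC content was 72.8%, where the median window had 52.4%.

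Casr, the calcium-sensing receptor at the head of the pathway, read near the background. Its values were 3.92, 4.16 and 4.03 on Rptor cKO arrays 1 to 3, and 4.07, 4.07 and 4.00 on wild-type arrays 4 to 6. Negative control probe sets had array medians of 3.81 to 4.11, and Casr lay under it on Rptor cKO array 1. The groups overlapped, and the difference of -0.0079 (SE 0.096, limma adjusted p = 0.975) had a 95% interval of -0.23 to 0.21. At that level the array gives little hold on the receptor's RNA in either group.

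Itpr2 encodes the type 2 inositol trisphosphate receptor, a calcium release channel of the endoplasmic reticulum, on chromosome 6 at 146108299 to 146502258. It read 6.45, 6.15 and 6.58 on Rptor cKO arrays 1 to 3 and 6.97, 6.80 and 6.96 on wild-type arrays 4 to 6. Rptor cKO array 2 was the lowest, and the highest Rptor cKO array lay below the lowest wild-type array. The means were 6.39 ± 0.22 and 6.91 ± 0.096 (SD, n = 3), a difference of -0.52 (SE 0.12, 95% interval -0.80 to -0.23, limma adjusted p = 0.0374). The call was lost without Rptor cKO array 1 (-0.55, limma adjusted p = 0.0734) or 2 (-0.40, adjusted p = 0.120) and without any wild-type array (-0.57 to -0.49, adjusted p 0.0528 to 0.104). It passed without Rptor cKO array 3, and over all 15 alternatives the difference ran from -0.76 to -0.40. With embryo sex as a term Itpr2 gave -0.76 (limma adjusted p = 0.0494). That fit compares Rptor cKO array 2, the lowest for this gene, alone with the wild-type arrays. The window before the Itpr2 start, chr6:146502224-146502473 on the minus strand, carries the same marks as above.
Itpr2: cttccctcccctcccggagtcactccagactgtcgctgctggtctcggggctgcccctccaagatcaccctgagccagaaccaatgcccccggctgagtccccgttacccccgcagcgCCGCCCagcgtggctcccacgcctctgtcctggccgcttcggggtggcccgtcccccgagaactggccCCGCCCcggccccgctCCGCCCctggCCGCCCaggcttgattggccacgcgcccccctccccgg
It held 4 GC boxes, 74.4% GC and none of the other 3 motifs.

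Store-operated entry was read through its sensor and its pore. Stim1, the calcium sensor of the endoplasmic reticulum, read 6.13, 6.32 and 6.36 on Rptor cKO arrays 1 to 3 and 6.48, 6.73 and 6.60 on wild-type arrays 4 to 6. The groups did not overlap, though Rptor cKO array 3 and wild-type array 4 lay close together. The difference of -0.33 (SE 0.11, 95% interval -0.58 to -0.089) missed the threshold (limma adjusted p = 0.0965) and did so in all 15 alternatives (0.0657 to 0.461). Orai1, the pore-forming subunit, read 6.79, 6.92 and 6.90 on the Rptor cKO arrays and 7.03, 6.90 and 6.88 on the wild-type arrays. Here the groups overlapped, and the difference of -0.066 (SE 0.092, limma adjusted p = 0.730) had a 95% interval of -0.28 to 0.14. Whether Stim1 and Orai1 differed from each other was not tested.

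Trpv3, the warmth-gated channel of keratinocytes that works with the EGF receptor and whose overactive forms cause the keratoderma Olmsted syndrome in people, fell. The gene lies on chromosome 11 at 73267489 to 73300368. It read 6.46, 6.67 and 6.65 on Rptor cKO arrays 1 to 3 and 7.30, 7.11 and 6.95 on wild-type arrays 4 to 6. The highest Rptor cKO array lay well under the lowest wild-type array. Means were 6.60 ± 0.12 and 7.12 ± 0.18 (SD, n = 3), a difference of -0.52 (SE 0.12, 95% interval -0.79 to -0.25, limma adjusted p = 0.0283). The call held without wild-type array 6 and was lost without any other array, the difference being -0.45, -0.56 or -0.55 without Rptor cKO array 1, 2 or 3, and -0.43 or -0.53 with wild-type array 4 or 5 left out (limma adjusted p 0.0560 to 0.0856). Against the wild-type arrays, the male Rptor cKO array 2 alone gave -0.44. The fit with embryo sex as a term did not pass (limma adjusted p = 0.257).

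The window before the Trpv3 start is shown to set its motifs beside those of the other 2 genes that fell. It lies at chr11:73267270-73267519 on the plus strand.
Trpv3: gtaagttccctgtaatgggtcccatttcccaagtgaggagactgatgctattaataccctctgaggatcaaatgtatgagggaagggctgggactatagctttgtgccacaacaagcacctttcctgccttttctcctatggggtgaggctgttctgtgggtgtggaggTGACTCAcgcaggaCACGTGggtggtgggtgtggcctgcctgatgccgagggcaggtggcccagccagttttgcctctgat
It held an AP-1 match that begins 81 bases before the start and a CACGTG match that begins 67 bases before it, and no GC box. Its GC content was 54.4%. Among the windows of the 8 measured genes with a sequence, only that of Trpv3 held TGANTCA or CACGTG, only that of Stim1 held AACCNGTT, and those of 6 genes (Plcd1, Itpr2, Stim1, Orai1, Trpv4 and Aqp3) held a GC box. A match is a description of the letters, and no binding was measured.

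Trpv4, a channel opened by warmth and cell swelling that sits at keratinocyte junctions, varied more between arrays. It read 6.12, 6.50 and 6.76 on Rptor cKO arrays 1 to 3 and 6.91, 6.59 and 6.87 on wild-type arrays 4 to 6. Rptor cKO array 3 lay above wild-type array 5, so the groups overlapped. The difference was -0.33 (SE 0.17, 95% interval -0.71 to 0.055, limma adjusted p = 0.287). It was -0.16 without Rptor cKO array 1 and -0.48 without Rptor cKO array 3. The interval of Trpv4 contains the value of Trpv3, and the difference between the channels was not tested.

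Among the pumps, Atp2a2 encodes SERCA2, which fills the endoplasmic reticulum and whose loss of function causes Darier disease, a disorder of keratinocyte adhesion. It read 8.71, 8.43 and 8.41 on Rptor cKO arrays 1 to 3 and 8.87, 8.50 and 8.68 on wild-type arrays 4 to 6. The groups overlapped, and the difference of -0.16 (SE 0.13, 95% interval -0.46 to 0.13) did not pass (limma adjusted p = 0.510). Aqp3, the channel that carries water and glycerol into basal keratinocytes, read 9.00, 8.90 and 8.94 in Rptor cKO and 8.81, 9.32 and 8.95 in wild type. Wild-type array 5 was high, and the other 5 arrays lay together. The difference was -0.079 (SE 0.13, 95% interval -0.39 to 0.23, limma adjusted p = 0.779), and without wild-type array 5 it was 0.068.

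**Figure D2:**
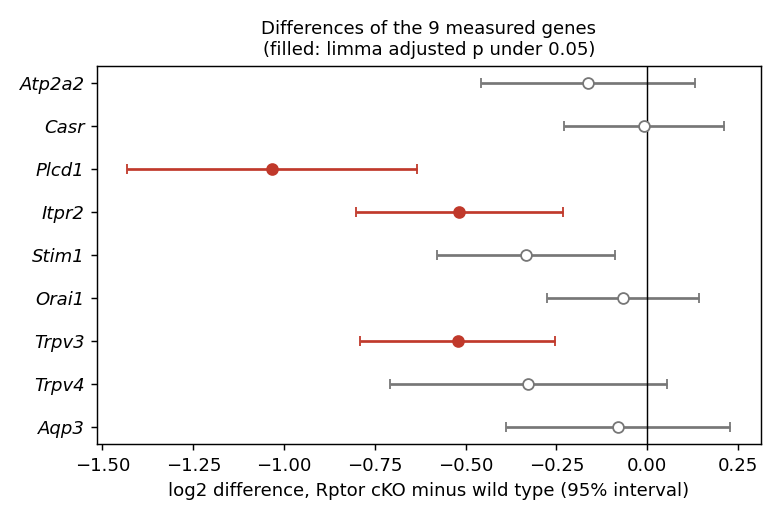
Points give the log2 difference of each of the 9 genes, knockout minus wild type, with 95% intervals from limma that are not adjusted for the number of genes; filled points passed at an adjusted p under 0.05. Plcd1 at -1.03, Trpv3 at -0.52 and Itpr2 at -0.52 passed, and the intervals of Atp2a2, Casr, Orai1, Trpv4 and Aqp3 include 0.

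The arrays of a group did not agree equally well from gene to gene. Rptor cKO array 1 was the lowest of its group for 6 of 9 genes (Casr, Plcd1, Stim1, Orai1, Trpv3 and Trpv4). Its negative control median of 4.11 was the highest of all arrays, with 3.81 to 3.87 on the others. Its mean over the 9 genes was 6.52, beside 6.62 and 6.72 on Rptor cKO arrays 2 and 3, and 7.00, 6.95 and 6.93 on wild-type arrays 4 to 6. The mean of 14 differentiation genes of the calcium switch was 7.44, 7.50 and 8.56 on the Rptor cKO arrays and 9.64, 9.11 and 9.31 on the wild-type arrays. Rptor cKO array 3 was the highest of its group on both measures.

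Neither calcium nor the switch itself was measured, and those 14 differentiation genes were read only as RNA. Of these, 9 fell and none rose in Rptor cKO, with a median of -1.83. Krt1 and Krt10 are among the 9 and were also counted as keratinocyte markers. At an unadjusted p under 0.05, 10 differed in limma. Tgm3, a transglutaminase of the cell envelope, fell by 2.91 (SE 0.26), and Casp14, the protease of the cornified layer, fell by 3.87 (SE 0.51). The number of falls was 4 with Rptor cKO array 2 left out, 5 with wild-type array 6 and 7 to 10 with any of the other 4. Of 10 junction genes, 4 fell and Cdh3 (P-cadherin) rose by 0.72 (SE 0.18). Cldn1, the barrier claudin, fell by 1.16 (SE 0.18) and the desmosomal plaque gene Pkp1 by 0.87 (SE 0.15). Without Rptor cKO array 2, 1 junction gene fell and none rose, and without wild-type array 6, 2 fell. With embryo sex as a term, no junction gene passed (limma adjusted p of 0.0519 for Cldn1, 0.106 for Pkp1 and 0.148 for Cdh3), the falls among the 14 differentiation genes numbered 6, and the basal genes had 2 rises and no fall. The rise of Cdh3 passed without Rptor cKO array 1 and was lost without any of the other 5 arrays (0.54 to 0.87 over the 6 fits). Of 10 basal genes, 4 rose and Krt15 fell by 2.31 (SE 0.35). The integrins Itga3 and Itgb4 rose by 1.41 (SE 0.16) and 0.98 (SE 0.11), and without Rptor cKO array 2 the rises numbered 2.

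Markers of other cells moved as well. Of 6 fibroblast markers 4 rose (Col1a1, Col3a1, Dcn and Lum), with a summed level per gene of 6.87 to 7.26 in Rptor cKO and 6.14 to 6.26 in wild type. Leaving out an array gave 1 rise (Rptor cKO array 2 or wild-type array 6), 2 (Rptor cKO array 1 or wild-type array 5), 3 (wild-type array 4) or 6 (Rptor cKO array 3). Of 8 myeloid markers, Ptprc and Csf1r fell, and the summed level was 5.12 to 5.45 in Rptor cKO and 5.52 to 5.78 in wild type. Ptprc was dim, with a mean over the 6 arrays not above the negative controls' median of 3.89. Only 1 of the falls passed without Rptor cKO array 2, and neither did with male arrays alone or with embryo sex as a term. The fibroblast rises numbered 4 in the former fit and 2 in the latter. Of 7 endothelial markers 1 rose, with a summed level of 4.11 to 4.30 in Rptor cKO and 3.89 to 4.15 in wild type, and 3 read below the negative controls' median throughout. That rise was lost without Rptor cKO array 1 or 2 or wild-type array 6, and with male arrays alone or embryo sex as a term. The ranges of the 2 groups overlapped for the endothelial list and for the remaining 5 lists. In those 5 lists 1 Merkel or neural marker rose and 1 fell. No melanocyte, skeletal muscle, adipocyte or erythroid marker passed in limma (3, 7, 0 and 0 at an unadjusted p under 0.05). The 3 melanocyte and 7 skeletal muscle markers were all higher in Rptor cKO, with list medians of 0.43 and 0.46. The part of these shifts in the falls of Plcd1, Itpr2 and Trpv3 was not tested.

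Around the 9 genes, 161 other calcium genes in 9 lists by role were measured, and 16 fell and 7 rose, 14.3% of them, beside 9.60% of all genes. These shares include dim genes: 15 of the 161 and 8608 of all 30063 read below the negative controls' median on all 6 arrays. With genes whose mean was not above that median left out, 23 of 141 other calcium genes passed, beside 2950 of 20186 genes. The median difference of the 161 genes was 0.035, beside 0.05 over all genes. The calls numbered 8 with Rptor cKO array 2 left out, 12 with Rptor cKO array 1, 13 with wild-type array 6 and 16 to 22 with any of the other 3. Of the 23 genes, 8 passed in all 6 of these fits (Atp2c2, Erp44, Prkcd, Camkk2, Calm5, Calml3, Micu2 and Cacna1g). With embryo sex as a term 4 of the 161 genes fell, Calm4 among them, and none rose. Of the 8, only Erp44, Calm5 and Calml3 passed (limma adjusted p of 0.0392, 0.0287 and 0.0392, against 0.0571 to 0.121 for the other 5).

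**Figure D3:**
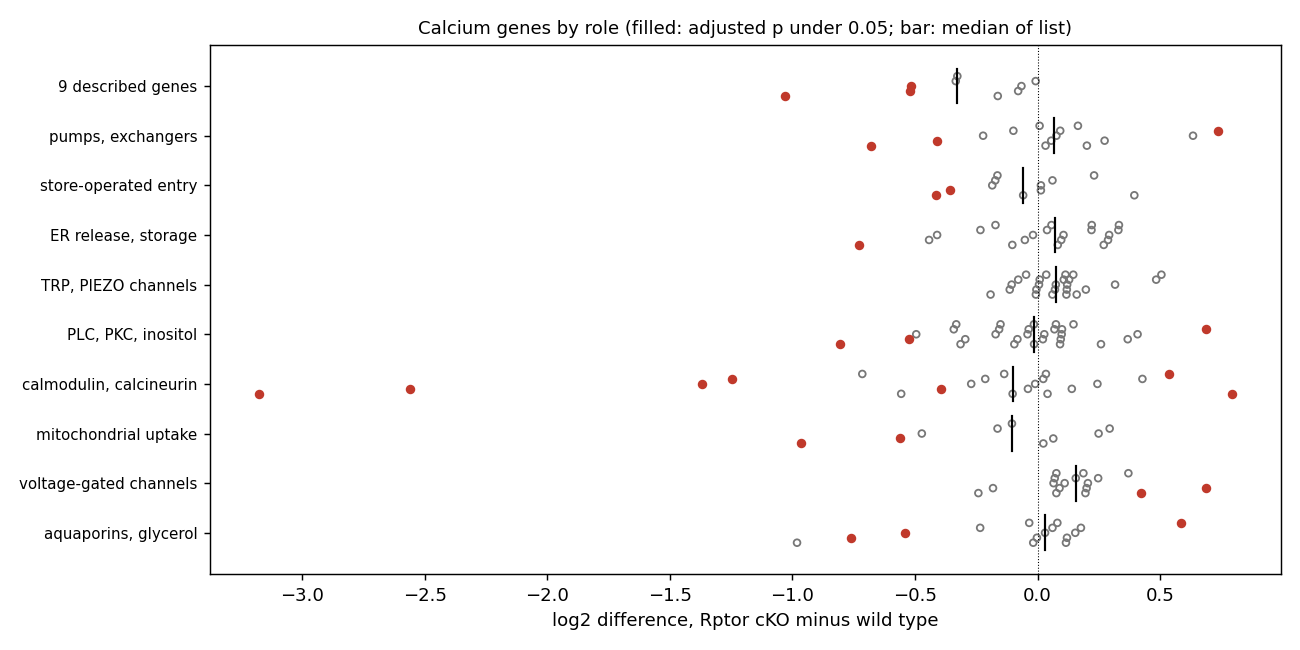
Each point is the log2 difference of 1 gene, knockout minus wild type, by role; filled points passed at a limma adjusted p under 0.05, and the bar is the median of the list. The largest falls among these genes, Calml3 at -3.18 and Calm5 at -2.56, lie in the calmodulin list, and no point of the TRP and PIEZO list is filled.

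Of 14 pumps and exchangers, 2 fell and 1 rose. Atp2c2, the second Golgi calcium pump and the closest relative of Atp2c1, read 5.35, 5.41 and 5.61 in Rptor cKO and 6.19, 6.15 and 6.06 in wild type, a difference of -0.68 (SE 0.10, limma adjusted p = 0.00670). The groups were well apart. Atp2b1, the main calcium pump of the plasma membrane, rose by 0.74 (SE 0.16), from 6.64 ± 0.31 to 7.38 ± 0.13 (SD, n = 3). That call was lost without Rptor cKO array 1 (0.66), Rptor cKO array 2 (0.78) or wild-type array 5 (0.69). Slc24a3, a sodium, calcium and potassium exchanger, fell by 0.41 (SE 0.086) and passed without wild-type array 4 alone of the 6 arrays (-0.44 to -0.38).

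Of 11 genes of store-operated entry, Stim2 and Saraf fell and none rose. Stim2, the paralog of Stim1 that keeps resting calcium, read 7.60, 7.59 and 7.63 in Rptor cKO and 7.96, 7.86 and 8.08 in wild type (-0.36, SE 0.092, limma adjusted p = 0.0468). Saraf, which shuts store-operated entry, fell by 0.41 (SE 0.11, limma adjusted p = 0.0483). Neither call was firm: Stim2 did not pass without any of the 6 arrays (-0.41 to -0.30), and Saraf passed without wild-type array 5 alone (-0.48 to -0.34). Among 20 genes of release and storage in the endoplasmic reticulum, Erp44, a chaperone that also inhibits the type 1 inositol trisphosphate receptor, fell by 0.73 (SE 0.12) and none rose.

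Of 25 other TRP and PIEZO channel genes none passed in limma, beside 9.60% of all genes, 3 had an unadjusted p under 0.05, and the median difference was 0.074. Whether they differed from Trpv3 was not tested. The moderation that follows intensity called 1 and the robust moderation none, and 1 was called with Rptor cKO array 3 left out and 1 with wild-type array 6. The smallest p was that of Trpm3 (0.50, SE 0.14, limma adjusted p = 0.0570), which read below the negative controls' median in all 3 wild types. Of the list, 7 genes read below that median throughout. Among 17 voltage-gated channel genes, the T-type channels Cacna1g and Cacna1h rose by 0.69 (SE 0.11) and 0.42 (SE 0.10) and none fell. Cacna1h passed without wild-type array 5 alone of the 6 arrays (0.38 to 0.49).

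Among 29 genes of phospholipase C signalling, 2 fell and 1 rose, all 3 of them protein kinases C. Prkcd read 7.01, 7.10 and 7.13 in Rptor cKO and 7.54, 7.66 and 7.61 in wild type (-0.52, SE 0.088, limma adjusted p = 0.0100). Prkch, the isoform of the granular layer, fell by 0.80 (SE 0.19), and Prkca, a conventional calcium-dependent isoform, rose by 0.69 (SE 0.14). Prkch lost its call without Rptor cKO array 1 (-0.68), Rptor cKO array 2 (-0.80) or wild-type array 6 (-0.89). Prkca lost it without Rptor cKO array 1, 2 or 3 (0.67, 0.73 and 0.66) or wild-type array 5 (0.64), and with embryo sex as a term it gave 0.60 (limma adjusted p = 0.202). The other 3 isoforms measured did not pass, with 0.021 for Prkcb, -0.16 for Prkce and -0.082 for Prkcz. No other phospholipase C of the list passed.

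Among the 161 other calcium genes, the largest falls were those of Calml3 and Calm5, of the calmodulin family. Of 21 genes of calmodulin, its kinases, calcineurin and NFAT, 5 fell and 2 rose. Calml3 read 7.68 to 9.56 on the 3 Rptor cKO arrays and 11.33 to 11.88 on the 3 wild-type arrays, a difference of -3.18 (SE 0.43). Calm5, a calmodulin-like protein of differentiating keratinocytes, read 4.78, 4.81 and 6.02 against 7.96, 7.40 and 7.93, a difference of -2.56 (SE 0.32, limma adjusted p = 0.00366). On both genes Rptor cKO array 3 lay above the other Rptor cKO arrays and well below wild type. Calm4, its relative, fell by 1.25 (SE 0.26) and the kinase gene Camk1d by 1.37 (SE 0.29). Both calls were lost without Rptor cKO array 1, Rptor cKO array 2 or wild-type array 6, with -1.20, -1.001 and -1.23 for Calm4 and -1.22, -1.23 and -1.43 for Camk1d. The fifth fall, Nfatc2 (-0.39), lost its call without any of the 6 arrays (-0.43 to -0.33). It was named after its values were seen. Camkk2, a kinase that activates AMPK, rose by 0.79 (SE 0.12), and Nfatc4 rose by 0.53 (SE 0.099), a call lost without Rptor cKO array 2 (0.51).

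Of 9 genes of mitochondrial calcium uptake 2 fell and none rose. Micu2, a gatekeeper of the uniporter, fell by 0.97 (SE 0.14), and Smdt1, its scaffold subunit EMRE, fell by 0.56 (SE 0.14). Smdt1 lost its call without Rptor cKO array 1 (-0.46), Rptor cKO array 2 (-0.56), wild-type array 4 (-0.50) or wild-type array 6 (-0.51). Among 15 aquaporins and genes of glycerol use, 2 fell and 1 rose. Aqp9, a second channel for glycerol, fell by 0.76 (SE 0.20) and Pld1, a phospholipase D, by 0.54 (SE 0.11). Gpd2, the mitochondrial glycerol phosphate dehydrogenase, rose by 0.59 (SE 0.11). Aqp9 passed with Rptor cKO array 1 or wild-type array 5 left out (-0.93 to -0.59 over the 6 fits), Pld1 without Rptor cKO array 1 (-0.65 to -0.46), and Gpd2 without any array but Rptor cKO array 2 (0.61).

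**Figure D4:**
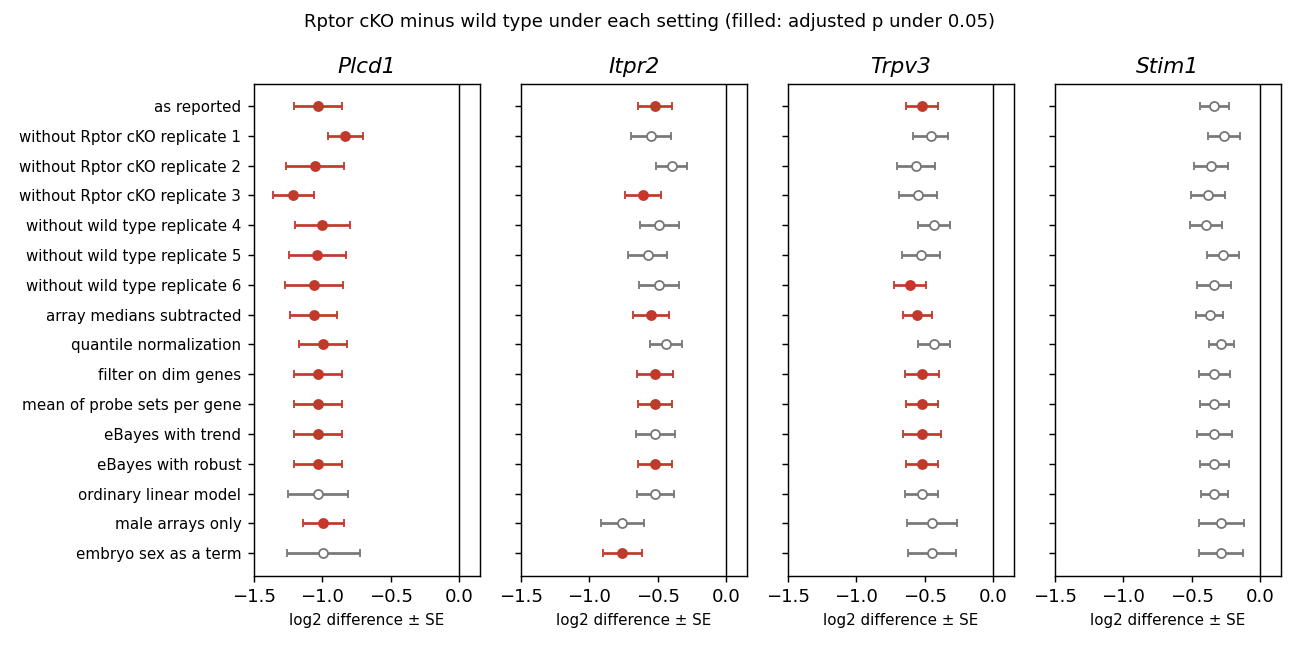
Log2 differences ± SE of Plcd1, Itpr2, Trpv3 and Stim1, knockout minus wild type, as reported and under 15 other settings; filled points passed at an adjusted p under 0.05. Plcd1 passed in 13 of 15, Itpr2 and Trpv3 in 6 of 15 each and Stim1 in 0 of 15, and the points of these 4 genes lie below 0 throughout.

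Genes whose values followed those of a member most closely over the 6 arrays were Gstm5 and Mcee for Plcd1 (Pearson r = 0.997 each), Dnajb3 and Lingo3 for Itpr2 (r = 0.998 and 0.996) and Rasal1 and Hivep2 for Trpv3 (r = 0.996 and 0.994). They were taken from 11700 named genes above the median level. Likeness over so few arrays from 2 groups is common: 533 genes exceeded r = 0.95 with Plcd1, 367 with Trpv3 and 250 with Itpr2.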

How the data were processed

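For 6 arrays the deposited values are log2 expression per probe set. RMA, Partek and mm10 are named, with no versions, per the submitters' processing notes. The values ran from 1.34 to 14.04. Array medians ran from 4.08 to 4.22, and RNA per cell was not measured. Of 72688 probe sets, 30604 named 1 gene through the platform's annotation, with symbols updated through RefSeq (GRCm38.p6), 2146 named several genes and 33206 none. Of the 30063 genes, the 429 with several probe sets were read from that of the highest mean over all 6 arrays.

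Differences were fitted over all genes with limma 3.58.1 in R 4.3.3 (lmFit, eBayes, group as sole term, two-sided, Benjamini-Hochberg, threshold 0.05, 4.31 prior degrees of freedom). An exact permutation test of 3 against 3 arrays cannot go below p = 0.1. No filter was set on dim genes. A summed level is the log2 of the markers' mean linear value. The labels call the samples biological replicates.

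Members and lists were chosen with earlier results of these data known. Named were the members, from each calcium list up to 4 passing genes per direction (or the smallest p), from the switch lists up to 2, for each member that passed the 2 genes of highest correlation, and Rptor. Marker genes and the fifth calmodulin-list fall, outside this rule, were named to resolve counts. Alternatives left out each array, changed scaling, moderation, filter and probe set rule, or used embryo sex. No scan dates are in the files used. Python 3.11.15 and pandas 2.3.3 were used.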

Additional observations from a re-analysis of the deposited data

How the results depend on the processing

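Of 135 refits of the 9 genes (15 alternatives each), 106 kept direction and side of the threshold, 20 lost the call of Plcd1, Itpr2 or Trpv3, and 9 changed sign, each in a gene that did not pass. The sign changes were, after quantile normalization, Atp2a2 (0.014), Orai1 (0.022) and Aqp3 (0.069), with wild-type array 5 left out Aqp3 (0.068; -0.19 to 0.068 over arrays left out), and for Casr 0.052 with Rptor cKO array 1 left out and 0.0027 and 0.0045 with wild-type array 4 or 5 (-0.071 to 0.052 over arrays), and 0.118 with male arrays alone and with sex as a term. With any 1 array left out, the calls numbered 900 to 2444 over all genes, 1 to 2 of the 9 genes and 8 to 22 of the other calcium genes. An ordinary linear model called 8 genes in all and 0 in both calcium groups (4 and 44 at an unadjusted p under 0.05, where limma had 4 and 51). Male arrays alone called 867 genes, 1 of the 9 and 6 other calcium genes, and sex as a term 643, 1 and 4. Both compare Rptor cKO array 2 alone with wild type and assume that it varies like the other arrays. Quantile normalization left 1 of the 9 genes, Plcd1. The causes were not tested. No paired analysis was possible because the labels number the arrays 1 to 3 and 4 to 6, so the groups share no replicate number.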
